A study of Mus musculus with 10 samples.

Results

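Ifi202b, Ifi203, Ifi204 and Aim2 are 4 genes of the p200 family, also called HIN-200 or PYHIN genes, and were taken by gene symbol from a table of 56691 mouse genes. They were selected on their FPKM in wild-type and Mst1/2 knockout tissue, and Ifi202b also because its transcript is known to differ between mouse strains. The difference between the genotypes in these genes is therefore given as a description, with no test. The other 10 genes of the family that the table lists are described beside them.

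RNA was sequenced from mouse esophageal epithelium freed of muscle and mesenchyme, in 5 wild-type libraries (WT1 to WT5) and 5 knockout libraries (KO1 to KO5). The knockout mice were p63CreERT2;Mst1loxp/loxp;Mst2-/-, that is, they lacked Mst2 in the germline and carried an Mst1 allele that Cre deletes once tamoxifen has been given. Mst1 and Mst2 are kinases of the Hippo pathway, and the name of the inducible Cre refers to p63, a factor expressed by the basal cells of squamous epithelia. Both groups received tamoxifen at 100 mg/kg in 3 doses spaced 2 weeks apart, and tissue was taken at about 8 weeks. The labels give no strain and no age, so a difference in genetic background between the groups cannot be told apart from the loss of the kinases. Whether the wild-type mice carried the Cre is not stated here, and a difference in Cre between the groups could not be told apart from that loss either. Nor do the labels say whether the libraries came from separate mice, so p-values measure only the spread between these samples.

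The p200 genes lie side by side on mouse chromosome 1 and are induced by interferons. Most of their proteins carry 1 or more HIN domains, which bind DNA, and many carry a pyrin domain, through which they bind other proteins. Aim2 senses DNA in the cytosol and, through its pyrin domain, recruits the adaptor Pycard and the protease Casp1 into an inflammasome that matures Il18 and Il1b. The product of Ifi202b, p202, has HIN domains but no pyrin domain and is known to oppose Aim2. Its transcript is abundant in some inbred strains, where it has been studied as a lupus candidate, and nearly absent in others.

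Because the members share a cluster and a mode of induction, the sequences just upstream of their start sites were compared. RefSeq (GRCm38.p6) gave 14 promoter sequences for 12 of the 14 genes, each covering 250 bases before and 50 bases after a start site. The 250 bases before the start of Ifi202b, on the minus strand at chr1:173982845-173983094, are shown because this is the only abundant gene of the family here. Capitals mark the 2 motifs found in it, GGAATG, the core bound by the TEAD factors of the Hippo pathway, and a match to TTCNNNGAA, the core of STAT sites.
Ifi202b: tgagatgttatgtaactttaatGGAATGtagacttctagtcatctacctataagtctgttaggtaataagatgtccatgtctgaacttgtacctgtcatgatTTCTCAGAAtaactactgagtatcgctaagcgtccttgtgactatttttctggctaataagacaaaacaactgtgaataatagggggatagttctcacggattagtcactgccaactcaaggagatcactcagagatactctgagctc

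Most of the other genes shared a short stretch that was not found in the window searched for Ifi202b. GAAANNGAAA, the core bound by interferon regulatory factors, was found on either strand in the promoters of 9 of the 12 genes, against 3.44% of all 32851 promoters in the table. In 7 of these genes it was spelled GAAATCGAAA, and these 7 promoters were among only 16 in the whole table that hold that spelling, which was picked out after the sequences were seen. The next lines give it in capitals with 10 bases on each side for genes that represent the different versions; all are on the minus strand.
Ifi203: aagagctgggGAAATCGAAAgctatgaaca
Mndal: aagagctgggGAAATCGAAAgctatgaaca
Ifi207: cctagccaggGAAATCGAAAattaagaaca
Ifi213: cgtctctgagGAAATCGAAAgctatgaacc
Ifi211: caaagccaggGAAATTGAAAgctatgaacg

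These stretches lie at chr1:173942508-173942537 for Ifi203, chr1:173880204-173880233 for Mndal, chr1:173741831-173741860 for Ifi207, chr1:173599326-173599355 for Ifi213 and chr1:173913064-173913093 for Ifi211. The motif began 35 bases before the start site of Ifi203 and 36 bases before that of Mndal. The printed stretches of Ifi203 and Mndal are identical, whereas Ifi211, which lies between them, has another spelling. The promoters of the family resemble one another as copies do, so the 9 genes are not 9 separate cases. In the windows of Ifi202b, Aim2 and Ifi209 GAAANNGAAA was not found, nor was it in the window of the second Ifi203 start. GGAATG was found in 6 of the 12 genes, Ifi202b, Ifi203 and Aim2 included, and in 14.7% of all promoters, and TTCNNNGAA was found in Ifi202b alone of the 12 and in 8.30% of all promoters. The GENCODE M21 start of Ifi202b lies 100 bases downstream of the RefSeq start, so its window depends on the annotation. The window ends 50 bases after the RefSeq start, so the bases just before the GENCODE start were not searched. A match is a description of letters and shows no binding, and the reference is the genome of a single inbred strain.

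Depth was estimated at 13070000 to 16440000 fragments a library, with 10878 to 11606 genes reaching 1 FPKM (fragments scaled by gene length and library size, the deposited unit). The squamous keratin Krt13 was present at 33902 to 38781 FPKM throughout, and all 12 squamous epithelium markers examined passed the filter on low values. Of the 12, 0 rose and 2 (16.7%) fell, both with groups that did not overlap. Trp63, which encodes p63, fell from 38.8 ± 5.45 to 22.6 ± 3.58 FPKM (adjusted p = 0.00293, limma). Krt78, a keratin, fell from 732 ± 124 to 392 ± 165 FPKM (adjusted p = 0.0385, limma). Stk3, the gene of Mst2, had 2.62 ± 0.521 FPKM in the wild-type group against 0.134 ± 0.0862 in knockout (SD over 5 libraries a group). Its log2 difference of -1.67 passed the test (SE 0.12; limma, Benjamini-Hochberg adjusted p = 2.78e-06). Stk4, the gene of Mst1, was not called, at 19.3 ± 2.41 and 15.6 ± 2.00 FPKM (adjusted p = 0.123, limma); a value over the whole gene does not check a deletion of some exons. Differences are on the log2(FPKM + 1) scale, knockout minus wild type, and a gene was tested if it reached 1 FPKM in at least 5 libraries. Of 11386 tested genes, 1465 (12.9%) passed an adjusted p of 0.05, 900 (7.90%) higher and 565 (4.96%) lower in knockout. That division depends on the scaling: higher values made up 61.4% of the calls on the deposited scale, 50.8% with median-ratio scaling and 47.9% once the libraries were quantile normalized.

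Ifi202b (ENSMUSG00000026535) was the only one of the 4 members, and of all 14 p200 genes, that passed the filter on low values. In wild type it stood at 15.2, 53.0, 17.2, 21.7 and 15.4 FPKM in WT1 to WT5. In knockout it stood at 152, 152, 135, 118 and 161 FPKM in KO1 to KO5. Every knockout library was above every wild-type library, and the gap between the groups ran from 53.0 to 118 FPKM. The means were 24.5 ± 16.2 in wild type and 144 ± 17.3 FPKM for knockout (SD over 5 libraries a group), a ratio of 5.86. On the log2 scale the difference was 2.67 (SE 0.34). It is the 40th largest increase among all tested genes, whose median difference was 0.06, and groups that do not overlap were found for 10.5% of them, 6.62% with knockout higher and 3.88% with knockout lower.

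**Figure D1:**
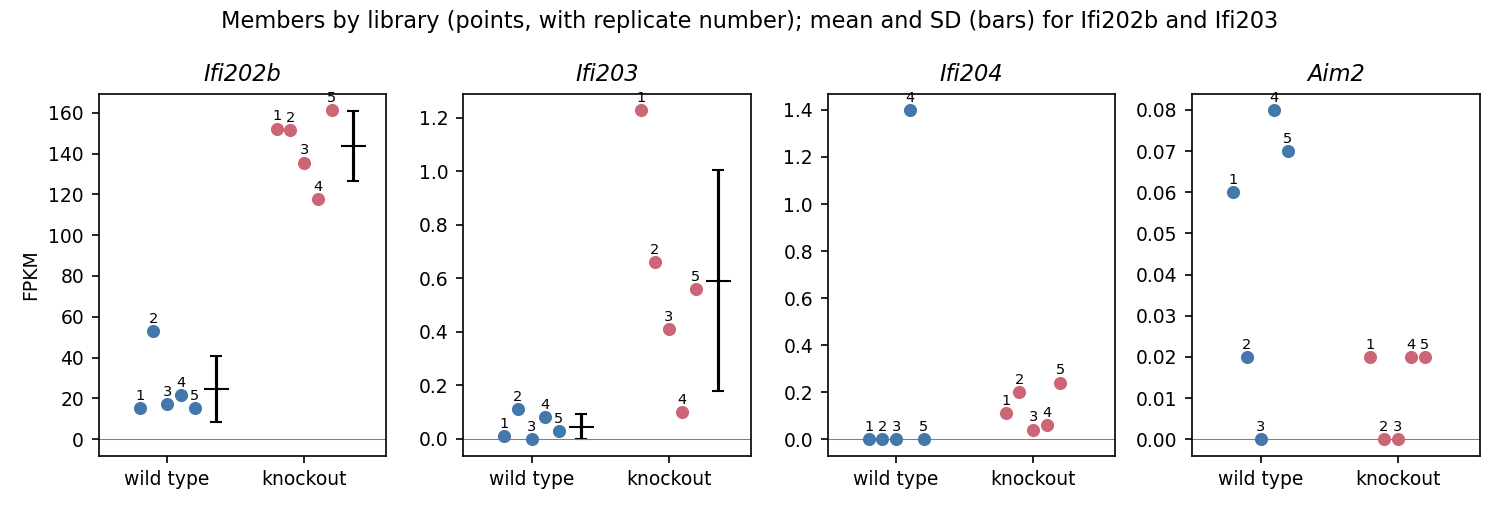
FPKM of the 4 members in each library (points, numbered by replicate; y axis linear, with its own range in each panel), wild type in blue and knockout in red. Bars give mean and SD of 5 libraries for Ifi202b and Ifi203. Ifi202b is above 100 FPKM in all knockout libraries and at most 53.0 FPKM in wild type, while the other members stay at 1.4 FPKM or less.

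The relative spread of Ifi202b differed between the groups as well, with an SD of 65.9% of the mean in wild type and 12.1% in knockout. The wild-type spread came mostly from WT2: without it the wild-type mean was 17.4 ± 3.02 FPKM (SD, n = 4), and the log2 difference was 2.98. Measured by rank, Ifi202b was between the 830th and 2790th most abundant gene of a wild-type library and between the 297th and 372nd of a knockout library. The values rest on an estimated 389 to 1411 fragments per wild-type library and 2754 to 4123 per knockout library, so counting error is small beside the spread between libraries. Of the distinct 31-base sequences of its transcript in GENCODE M21, 1.20% also occur in another gene, mostly the neighbouring Gm18445. Few reads could thus have been divided between copies within that annotation. Copies that the annotation lacks were not covered.

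Ifi203 (ENSMUSG00000039997), whose protein carries both a pyrin and a HIN domain, was near the floor in wild type. It stood at 0.01, 0.11, 0, 0.08 and 0.03 FPKM in WT1 to WT5 and at 1.23, 0.66, 0.41, 0.1 and 0.56 FPKM in KO1 to KO5. Knockout libraries 1, 2, 3 and 5 were above all wild-type libraries, whereas KO4 was level with WT2. The group means were 0.046 ± 0.0472 and 0.592 ± 0.415 FPKM (SD over 5 libraries a group), and the log2 difference was 0.57 (SE 0.17). Behind these values are an estimated 0 to 12 fragments per wild-type library and 9 to 108 per knockout library. With a pseudocount of 0.1 FPKM in place of 1 the difference was 2.06, so its size depends on that choice. Of the 31-base sequences of Ifi203, 21.9% occur in other genes, 15.9% in Ifi203-ps, and the division of reads between these copies is uncertain.

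Ifi204 (ENSMUSG00000073489), which encodes the nucleolar and nuclear protein p204, was listed at 0 in WT1, WT2, WT3 and WT5 and at 1.4 FPKM in WT4. The knockout libraries KO1 to KO5 stood at 0.11, 0.2, 0.04, 0.06 and 0.24 FPKM. All of the wild-type signal was thus in a single library, with an estimated 72 fragments, and the knockout libraries held 2 to 13 fragments each. The log2 difference of -0.08 turned to 0.17 without WT4 and to 0.34 with a pseudocount of 0.1 FPKM, and no direction can be given. WT4 was also the library with the highest sum of lymphocyte markers, 2.58 FPKM. The other wild-type libraries had 0.13 to 1.28 FPKM and the knockout libraries 0.25 to 0.77 FPKM. The macrophage and monocyte sum of WT4, 11.8 FPKM, lay inside the wild-type range of 8.41 to 14.7 FPKM. Its Langerhans and dendritic sum, 35.3 FPKM, was below that of WT5 (46.7 FPKM), where Ifi204 was listed at 0. The part of any of these cells in the Ifi204 value was not tested. Ifi204 shares 34.6% of its 31-base sequences with other genes, 18.9% with Ifi211.

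Aim2 (ENSMUSG00000037860), the DNA sensor of the inflammasome, was close to 0 throughout. It was listed at 0.06, 0.02, 0, 0.08 and 0.07 FPKM in WT1 to WT5 and at 0.02, 0, 0, 0.02 and 0.02 FPKM in KO1 to KO5. That is an estimated 12 fragments in all wild-type libraries together and 3 in all knockout libraries, where 1 fragment is worth 0.0174 to 0.0219 FPKM. A difference of Aim2 between the groups was not detectable at this depth. The contrast within the family is one of level: p202 is described as an antagonist of Aim2, and in this tissue the transcript of the antagonist was the more abundant of the pair in every library.

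Ifi202b made up nearly all p200 transcript measured in this epithelium. Its share of the summed FPKM of the 14 genes was 89.9% to 100% for wild-type and 98.2% to 99.7% for knockout libraries. The other 13 genes together reached at most 2.44 FPKM in a wild-type library (WT4) and 2.72 FPKM in a knockout library (KO1). In all, 10 genes of the family never reached 0.5 FPKM in any library, and 8 of these never reached 0.2 FPKM. Along the chromosome the order was Aim2, Ifi206, Ifi214, Ifi213, Ifi209, Ifi208, Ifi207, Ifi204, Ifi203-ps, Mndal, Ifi211, Ifi203, Ifi202b and Ifi205. The 3 genes before Ifi202b in that order, Mndal, Ifi211 and Ifi203, were the others whose knockout mean was above the wild-type mean by more than 0.1 FPKM.

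**Figure D2:**
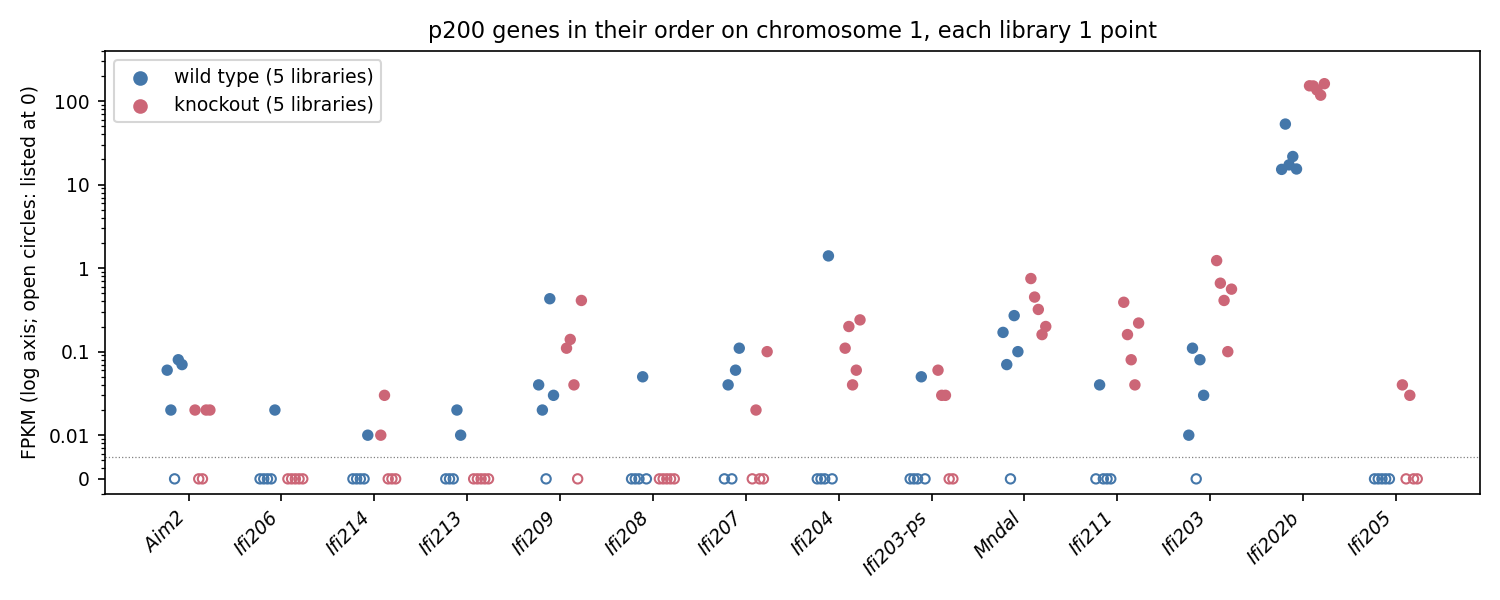
FPKM (log axis) of the 14 p200 genes in their order on chromosome 1, with 1 point per library, wild type in blue and knockout in red; open circles on the bottom line are libraries in which a gene is listed at 0. Ifi202b stands above all other members in every library, and Ifi205, the next gene, is listed at 0 in 8 of the 10 libraries.

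Mndal, an interferon-induced member with a pyrin and a HIN domain, stood at 0.17, 0.07, 0, 0.27 and 0.1 FPKM in WT1 to WT5 and at 0.75, 0.45, 0.32, 0.16 and 0.2 FPKM in KO1 to KO5. Knockout libraries 1, 2 and 3 were above the wild-type range and KO4 and KO5 within it. Ifi211 was listed at 0 in wild type except for 0.04 FPKM in WT2, and at 0.39, 0.16, 0.08, 0.04 and 0.22 FPKM in KO1 to KO5. Here KO4 again was level with WT2. Ifi211 shares 78.9% of its 31-base sequences with other genes and Mndal 28.7%, so which of the copies these reads came from is uncertain. Ifi209 had single high libraries in both groups, 0.43 FPKM in WT4 and 0.41 FPKM in KO5. Ifi205, which follows Ifi202b on the chromosome, was listed at 0 in all wild-type libraries and at most at 0.04 FPKM in knockout. The other 6, Ifi206, Ifi207, Ifi208, Ifi213, Ifi214 and Ifi203-ps, stayed at or below 0.11 FPKM.

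Since p200 genes answer to interferon, 76 interferon-induced genes were examined, of which 31 passed the filter. Of these, 7 (22.6%) were higher and 0 were lower in knockout, against 7.90% and 4.96% of all tested genes. The shares are a description, since the list was chosen with earlier results of these data known. Some called genes also passed the filter only through knockout libraries: in wild type, Oasl1 reached 1 FPKM in WT2 alone and Dhx58 in WT5 alone. The median log2 difference of the 31 genes was 0.28 (0.06 over all tested genes). Of the 31 differences, 23 were above 0, and 11 had an unadjusted p under 0.05 (limma). The shares of all tested genes that meet these 2 conditions are not given here, so neither count can be set against them. Oas1a, a synthetase of oligoadenylates that responds to double-stranded RNA, rose from 1.00 ± 0.705 to 7.45 ± 3.91 FPKM (SD over 5 libraries a group), with groups that did not overlap (log2 1.99, SE 0.35, adjusted p = 0.00454, limma). It has close gene copies, between which the division of reads is uncertain. Ifi27l2a rose from 4.01 ± 3.06 to 59.9 ± 49.9 FPKM (adjusted p = 0.0170, limma), the virion-tethering protein Bst2 from 3.15 ± 0.650 to 8.04 ± 3.15 FPKM (adjusted p = 0.0161, limma) and the RNA-sensor regulator Dhx58 from 0.748 ± 0.262 to 2.26 ± 0.864 FPKM (adjusted p = 0.0170, limma). The other called genes were Oasl1, Ddx58 and Ifitm3, and each of these calls was lost without 8 of the 10 libraries in turn. Ifitm3 (adjusted p = 0.0492, limma) also lost its call with a pseudocount of 0.1 FPKM, with median-ratio scaling or quantile normalization, and with a term for the replicate number. Isg15, the ubiquitin-like modifier, was at 4.67 ± 2.06 and 9.78 ± 5.81 FPKM and did not pass (adjusted p = 0.217, limma). Irf7 and Ifit1 were below the filter, at 0.412 ± 0.214 and 1.28 ± 0.814 FPKM for Irf7 and 0.274 ± 0.265 and 0.910 ± 0.819 FPKM for Ifit1. The count of 7 became 4 when WT1, WT5, KO1, KO2, KO3 or KO5 was left out and 11 without KO4. It was 3 with no filter, where Bst2 and Dhx58 were among the calls lost, and 2 with a filter at 5 FPKM, and Ifi27l2a lost its call with a term for the replicate number.

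**Figure D3:**
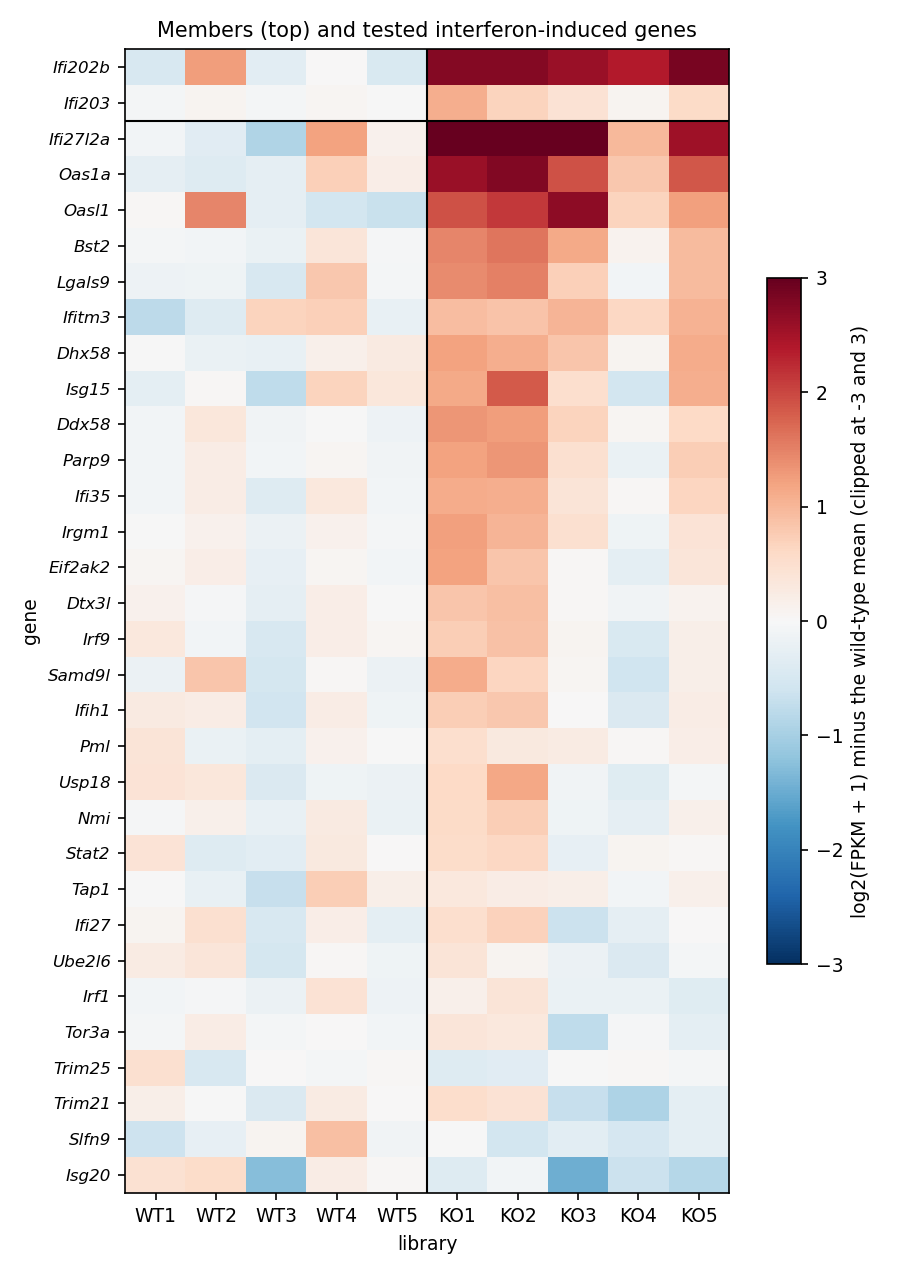
log2(FPKM + 1) minus the wild-type mean of each gene (colour scale, blue below and red above it) in the 10 libraries (columns) for Ifi202b and Ifi203 (above the line) and tested interferon-induced genes (below it, by mean knockout difference; 1 of the 31 is not drawn). Ifi202b is red in every knockout column, whereas most interferon-induced genes are pale in KO4.

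Interferon-induced genes and Ifi203 ranked the libraries only partly as Ifi202b did. For the interferon-induced mean, Ifi203 and Ifi202b alike, values fell in order from KO1 to KO4, and WT2 and WT4 were the highest wild-type libraries. KO5 was the highest knockout library for Ifi202b but not for the others. The mean log2(FPKM + 1) level of the 31 genes was 2.27, 2.33, 1.91, 2.54 and 2.20 in WT1 to WT5 and 3.19, 3.16, 2.60, 2.14 and 2.65 in KO1 to KO5. KO4 thus lay within the wild-type range and the other knockout libraries above it. In KO4, 24 of the 31 genes were within their wild-type range, 1 above and 6 below it, whereas 25 were above it in KO1, 22 in KO2, 10 in KO3 and 12 in KO5. In the same KO4 library Ifi203 (0.1 FPKM), Ifi211 (0.04 FPKM) and Irf7 (0.15 FPKM) were within their wild-type ranges too. Ifi202b, at 118 FPKM, was lowest of the knockout libraries there but remained above 53.0 FPKM, the highest wild-type value. In wild type, WT4 had the highest interferon-induced level and the highest value for 14 of the 31 genes. Ifi202b stood at 21.7 FPKM in it, against 53.0 FPKM in WT2, and Ifi203 was likewise highest in WT2 (0.11 FPKM). With 5 libraries a group, no correlation within a genotype was tested.

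**Figure D4:**
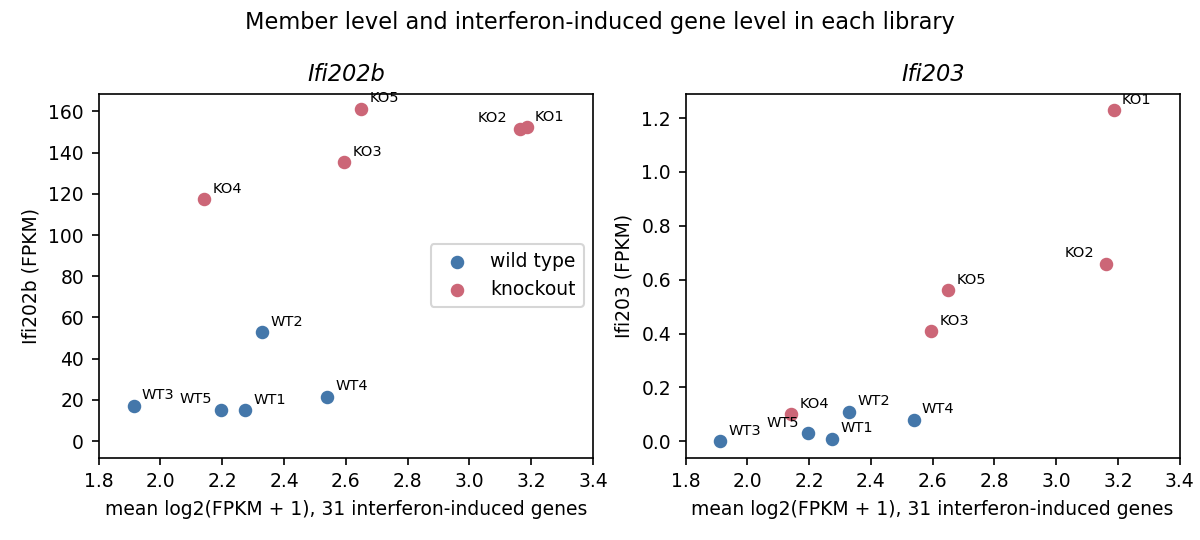
Ifi202b (left) and Ifi203 (right), in FPKM, against the mean log2(FPKM + 1) level of the 31 tested interferon-induced genes, with 1 point per library, wild type in blue and knockout in red. For Ifi203, KO4 sits among the wild-type libraries; for Ifi202b, KO4 has a wild-type interferon-induced level (2.14) but 118 FPKM.

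Interferon reaches these genes through its receptors and their signalling proteins. Of 18 tested genes of this kind, 2 rose and 1 fell, 16.7% against 12.9% of all tested genes. Ifngr2, a chain of the interferon gamma receptor, rose from 7.07 ± 0.605 to 10.8 ± 0.384 FPKM with groups that did not overlap (SD over 5 libraries a group; adjusted p = 0.00159, limma). Ifngr1, the other chain, rose from 8.35 ± 2.46 to 12.9 ± 1.79 FPKM (adjusted p = 0.0383, limma), and Ifnlr1, a chain of the interferon lambda receptor, fell from 5.25 ± 1.24 to 3.38 ± 0.613 FPKM (adjusted p = 0.0447, limma). Ifngr2 kept its call without any 1 library; Ifngr1 and Ifnlr1 lost theirs without 8 and 7 of the 10 libraries in turn, with adjusted p of up to 0.0902 and 0.115.

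Among the partners of Aim2, the transcripts present in this epithelium were downstream of the sensor. Of 13 tested inflammasome and pyroptosis genes, 0 passed the limma test, against 12.9% of all tested genes, and 4 had an unadjusted p under 0.05. The share of all tested genes with such an unadjusted p is not given here, so the 4 are not read as a result about this list. The adaptor Pycard was at 38.6 ± 6.94 and 40.1 ± 11.6 FPKM in the 2 groups (SD over 5 libraries a group; adjusted p = 0.946, limma), and the protease Casp1 at 31.7 ± 4.49 and 26.8 ± 9.16 FPKM (adjusted p = 0.371, limma). The cytokine Il18 was at 130 ± 27.7 and 95.3 ± 39.98 FPKM (adjusted p = 0.242, limma). Il1b, at 0.432 ± 0.257 and 1.28 ± 0.569 FPKM, and the pore-forming Gsdmd, at 0.376 ± 0.194 and 0.662 ± 0.197 FPKM, were below the filter. Adaptor, protease and Il18 were thus each measured at 15.7 FPKM or more in every library, beside an Aim2 of at most 0.08 FPKM.

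Of 24 tested genes of cytosolic DNA sensing and DNA removal, the process Aim2 and p204 are known from, 3 rose and 2 fell, 20.8% against 12.9%. Cgas, which senses cytosolic DNA by a route apart from Aim2, fell from 4.42 ± 0.647 to 2.91 ± 0.524 FPKM (SD over 5 libraries a group; adjusted p = 0.0266, limma), while its adaptor Sting1 was below the filter, at no more than 0.34 FPKM in any library. Dhx9, a helicase, rose from 14.95 ± 1.496 to 20.2 ± 2.52 FPKM (adjusted p = 0.0291, limma), and the ribonuclease subunit Rnaseh2c from 6.80 ± 2.32 to 10.7 ± 1.18 FPKM (adjusted p = 0.0310, limma). Rnaseh2b rose and the chromatin protein Hmgb1 fell. Each of these 5 calls was lost without at least 5 of the 10 libraries in turn, with adjusted p of up to 0.104.

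Proteins reported to bind p200 proteins, mainly transcription factors and cell cycle regulators, gave 17 tested genes, of which 2 rose and 1 fell, 17.6% against 12.9%. Fos, a subunit of the factor AP-1, rose from 3.26 ± 1.31 to 11.6 ± 6.61 FPKM (SD over 5 libraries a group; adjusted p = 0.0305, limma), and Id1, an inhibitor of helix-loop-helix factors, from 26.9 ± 7.09 to 45.7 ± 13.3 FPKM (adjusted p = 0.0439, limma). Rbl2, of the retinoblastoma family, fell from 3.99 ± 0.664 to 2.63 ± 0.235 FPKM (adjusted p = 0.0244, limma). The call of Fos was lost without 6 of the libraries in turn, that of Id1 without 8 and that of Rbl2 without 5.

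The tested genes on each side of the p200 cluster were examined as well. They are nearest in gene order only: genes below the filter were skipped and distances are not given, so they need not lie close to it. Of the 10 nearest tested genes on each side, 1 rose and 1 fell, 10.0% against 12.9% of all tested genes, and for 0 of the 20 did the groups separate, against 10.5%. Adss, an enzyme of adenosine nucleotide synthesis and the fourth tested gene beyond Ifi205, stood at 13.6, 30.2, 13.3, 16.5 and 11.0 FPKM in WT1 to WT5 and at 52.3, 41.7, 41.3, 26.1 and 30.5 FPKM in KO1 to KO5. As for Ifi202b, the highest wild-type library was WT2 and the lowest knockout library was KO4. Its log2 difference was 1.18 (SE 0.26, adjusted p = 0.0126, limma), and the call was kept without any 1 library. Pea15a, an adaptor of growth signalling, fell from 52.9 ± 5.58 to 40.8 ± 2.33 FPKM (adjusted p = 0.0333, limma), a call lost without 8 of the 10 libraries in turn. The median log2 difference of the 20 genes was 0.03, and on chromosome 1 as a whole 13.9% of 640 tested genes were called.

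**Figure D5:**
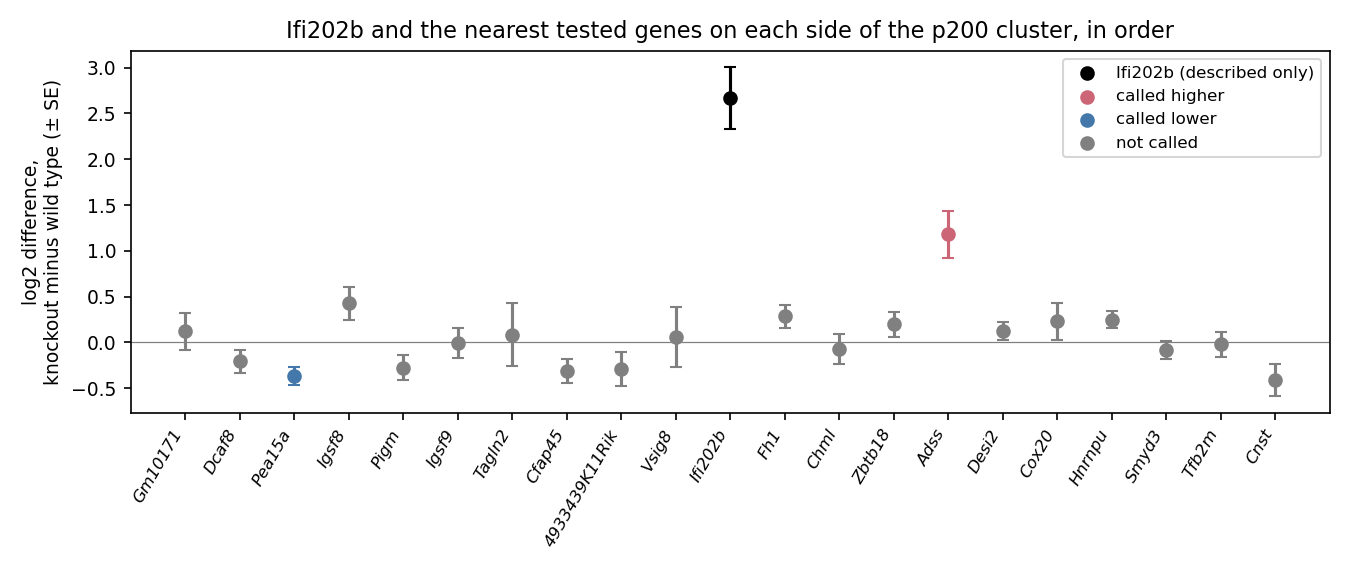
log2 difference, knockout minus wild type (points, with SE bars), of Ifi202b (black, described only) and the 10 nearest tested genes on each side of the p200 cluster, in chromosome order (x axis, not to scale); red marks a gene called higher, blue a gene called lower and grey the others. Ifi202b, at 2.67, stands above Adss, at 1.18, and the other neighbours lie between -0.41 (Cnst) and 0.43 (Igsf8).

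Ifi202b was also set beside 6 other genes whose transcript is known to vary between inbred strains, a list chosen with these data known. Of the 4 that were tested, 2 rose, both with groups that did not overlap, against 7.90% called higher and 6.62% so separated among all tested genes. Glo1, a glyoxalase that is duplicated in some strains, stood at 7.56, 11.0, 10.5, 10.3 and 8.05 FPKM in WT1 to WT5 and at 22.8, 21.9, 18.3, 20.2 and 20.96 FPKM in KO1 to KO5 (log2 1.07, SE 0.12, adjusted p = 0.000129, limma). Alad, an enzyme of heme synthesis that is also duplicated in some strains, rose from 28.7 ± 12.4 to 75.0 ± 8.73 FPKM (SD over 5 libraries a group; adjusted p = 0.00242, limma). Both calls were kept without any 1 library. Wdfy1 and Casp4 did not pass (adjusted p = 0.557 and 0.319, limma), and Apobec3 and Nnt were below the filter. Nnt, which is mutated in a common inbred substrain, lay between 0.01 and 0.13 FPKM in all 10 libraries, with overlapping groups. The part of genetic background in the Ifi202b difference was not tested, since the labels name no strain.

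Markers of other cells that express p200 genes covered a wide range. The pan-leukocyte gene Ptprc did not exceed 0.17 FPKM and the macrophage gene Adgre1 did not exceed 0.09 FPKM, whereas Cd74 and Cd68 reached 28.3 and 16.6 FPKM. Ifi202b stood at 15.2 to 53.0 FPKM in wild type and at 118 to 161 FPKM in knockout. Cd74 stood at 6.75, 4.33, 9.22, 21.2 and 28.3 FPKM in WT1 to WT5. Within a library it was above Ifi202b in WT5 alone, and it was lowest of wild type in WT2, where Ifi202b was highest. Cd68 was below Ifi202b in every library. The part of such cells in the Ifi202b level was not tested. The sum of 15 macrophage and monocyte markers ran from 8.41 to 14.7 FPKM over the wild-type libraries and from 11.98 to 20.2 FPKM over the knockout libraries, with means of 11.3 ± 2.40 and 16.9 ± 3.46 FPKM (SD over 5 libraries a group; exact two-sided permutation p = 0.0159, 0.0635 adjusted over 4 marker lists). The most abundant of them was Cd68, at 6.63 ± 2.82 and 11.4 ± 3.72 FPKM. Without it the sums were 3.04 to 7.64 FPKM and 3.26 to 7.71 FPKM (exact permutation p = 0.556), an alternative chosen after seeing the data. The mean log2(FPKM + 1) of all 15 differed by 0.09 (exact permutation, p = 0.603 after adjustment over the 4 marker lists). Langerhans and dendritic cell markers, led by Cd74 with 3.96 to 28.3 FPKM, summed to between 9.07 and 46.7 FPKM (wild type) or between 9.04 and 26.4 FPKM (knockout) (exact permutation p = 0.476). Lymphocyte markers gave an exact permutation p of 0.452, and fibroblast, endothelial and muscle markers stayed at 0.25 FPKM or less in sum (exact permutation p = 0.413). Of the 15 macrophage and monocyte markers, 9 were below 1 FPKM in every library. In bulk tissue, a change in the number of expressing cells and a change in transcript per cell cannot be told apart.

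The genes most like Ifi202b were sought by correlating log2(FPKM + 1) over the 10 libraries after each genotype mean was removed, a description dominated by WT2. The highest Pearson correlations were 0.992 for Gm6285, 0.952 for Sucla2 (a subunit of succinyl-CoA synthetase), 0.952 for S100a10 (the partner of annexin A2), 0.943 for Gm12338 and 0.941 for Gosr2 (a SNARE protein of the Golgi). Without WT2 they were 0.951, 0.729, 0.861, 0.765 and 0.808. Gm6285 and Gm12338 are annotated as processed pseudogenes, whose reads may come from other genes, and none of the 5 shares a 31-base sequence with Ifi202b. S100a10 stood at 78.2, 184, 83.7, 105 and 64.4 FPKM in WT1 to WT5 and at 183, 206, 176, 135 and 175 FPKM in KO1 to KO5, with WT2 inside the knockout range. It was called higher in knockout (log2 0.85, adjusted p = 0.0395, limma), a call lost without 8 of the libraries in turn, while the other 4 genes did not pass. These genes lie on chromosomes X, 14, 3, 11 and 11, so none is a neighbour of Ifi202b.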

How the data were processed

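The authors deposited 1 table of FPKM values (2 decimals) for 56691 Ensembl genes in 10 libraries. The build was mm9 and the tools HTSeq 0.6.1, HISAT2 2.0.1 and cutadapt, per the submitters' processing notes. Tool settings, annotation release, strandedness and FPKM denominator were not given in the sources used here. Therefore overlapping and antisense genes cannot be told apart. Raw counts were not used here. The fragments per library were estimated as the total at which FPKM values become whole fragments: in single-exon genes up to 1200 bp, 93.9% to 98.2% of values were whole to within their rounding plus 0.01 fragments, against 9.50% to 11.3% by chance. These totals limit precision for genes under about 1 FPKM.

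Values were tested as log2(FPKM + 1), which understates changes of low genes, with limma 3.58.1 in R 4.3.3 (genotype as the only term, trend and robust empirical Bayes) for genes at 1 FPKM or more in at least 5 libraries, with Benjamini-Hochberg adjustment over all of them and a threshold of 0.05. The procedure was tested on simulated data. Marker sums were compared by exact permutation over 252 assignments, whose smallest p is 0.0079. Promoters and gene order came from RefSeq (GRCm38.p6) and shared 31-base sequences and lengths from GENCODE M21, which lists 52073 of the gene IDs; since these are not mm9, gene coordinates are given only for promoters. Tables and figures were made with Python 3.11.15, numpy 2.4.6, pandas 2.3.3 and matplotlib 3.10.9.

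The members, gene lists and tests were chosen with earlier results of these data known. Named genes were the 4 members and the other p200 genes, up to 4 called genes per list by smallest adjusted p, genes with a stated role (such as Pycard, Casp1 and Isg15; 1 such gene is not reported here), called neighbours among 10 tested genes on each side of the cluster, the 5 genes most like Ifi202b, the targeted genes and the leading gene of each marker list; further genes completing a count of called genes, Trp63, Krt78, Ptprc, Adgre1 and the untested strain genes were added after their values were seen. The settings varied were the pseudocount (0.1 or 5), the filter (none, or 5 FPKM), the scaling (median ratios or quantiles), empirical Bayes with neither trend nor robust estimation, the replicate number as a block, a mean of log2 marker levels and leaving out each library.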

Additional observations from a re-analysis of the deposited data

Results flagged for a closer look

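Within a group of 5, a library was singled out when its gap to the nearest other library took up most of the range of the group, by Dixon's criterion at 95%, which chance meets in about 1 of 20 groups. Of 114 groups checked, 17 met it, a count that cannot be set against that rate. A group with a single library above 0 meets the criterion by arithmetic, and a group at 0 throughout cannot meet it. The former holds in wild type for Ifi204, Ifi206, Ifi208, Ifi211, Ifi214 and Ifi203-ps. WT2 stood above the other wild-type libraries for Ifi202b (53.01 FPKM), Ifi211 (0.04 FPKM), Oasl1 (4.21 FPKM), Ddx58 (1.70 FPKM), Adss (30.2 FPKM), Gm6285 (3.20 FPKM), Sucla2 (29.18 FPKM) and Gosr2 (26.15 FPKM); the last 3 were picked for following Ifi202b and are not separate cases. Over all 11386 tested genes WT2 stood apart on the high side for 172 (1.51%) and on the low side for 160, the most of the 10 libraries in each direction, and the other libraries did so for 10 to 123 genes on the high side.

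WT4 stood above the other wild-type libraries for Ifi204 (1.40 FPKM), Ifi209 (0.43 FPKM), Ifi208 (0.05 FPKM), Ifi203-ps (0.05 FPKM), Bst2 (4.28 FPKM) and Sting1 (0.10 FPKM). WT5 did so for Ifi206 (0.02 FPKM) and Ifi214 (0.01 FPKM), and KO5 stood above the other knockout libraries for Ifi207 (0.10 FPKM). The p200 values at 0.1 FPKM or less rest on a few fragments.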

How the results depend on the processing

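The Ifi202b difference (2.67 on the log2 scale) stayed between 2.46 and 2.72 over pseudocounts and scalings, 2.55 and 2.98 with each library left out. With the replicate number as a block it was 2.67, 1324 genes were called in place of 1465, and 6 interferon-induced genes were called, 1 of them lower. The numbers share no stated animal or batch: deviations of same-numbered libraries correlated at 0.06, 0.42, 0.19, -0.24 and 0.11, and only number 2 correlated best with its own. Genes called ranged from 793 (without WT5) to 1770 (without WT2), with 858 without WT1 and 898 without KO5; with no filter they were 977. Interferon-induced genes called were 3 with no filter, 2 with a filter at 5 FPKM and 4 to 11 with a library left out. The macrophage and monocyte difference ranged from 4.81 to 6.87 FPKM with a library left out. As a mean of log2(FPKM + 1) it was 0.09 (exact permutation, p = 0.603 after adjustment over the marker lists). The cause of these shifts was not tested, beyond the number of genes tested, 27599 without the filter and 6510 at 5 FPKM. At this depth Aim2 and Ifi204 rest on too few fragments for a direction.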
